A study of Mus musculus with 18 samples.

Results

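Polysomal RNA, the RNA that sediments with several ribosomes on a sucrose gradient, was compared between 2 sorted populations of mouse myeloid-derived suppressor cells (MDSC). The comparison rests on 6 of the 18 libraries of the series, chosen by their group labels: 3 polysomal libraries of the population named LY6G and 3 of the population named LY6C. Both came from bone marrow of wild-type C57BL/6 mice, grown as MDSC for 5 days before sorting. LY6G cells were sorted as Cd11b high, Ly6G high and Ly6C intermediate, and LY6C cells as Cd11b high, Ly6G negative and Ly6C high. After the sort the cells were put back in culture, collected the next day and treated with cycloheximide, which holds ribosomes on their mRNA. The sequenced RNA is therefore that of sorted cells after a further day outside the animal. Libraries carried the culture numbers 2, 3 and 6 in both populations, and all values below are given in that order. The other 12 libraries, total RNA of the same populations and both fractions of bone marrow, were used only where named.

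MDSC are immature myeloid cells that restrain T cell responses. The Ly6G-bearing kind is known for its likeness to neutrophils and the Ly6C-bearing kind for its likeness to monocytes. Arginase and inducible nitric oxide synthase are their best known suppressive enzymes. Heavily translated mRNAs carry many ribosomes, so polysomal RNA reads out mRNA level and ribosome loading together.

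The LY6C libraries of cultures 3 and 6 stood apart before any gene was compared. Total counts were 18268197, 20552964 and 19085627 in LY6G, against 20313012, 11677465 and 8857832 in LY6C. Protein-coding genes took 92.8%, 91.6% and 94.6% of the counts in LY6G, against 93.8%, 66.8% and 72.5% in LY6C. Gm23935, a locus annotated as a miRNA gene, took 3.63%, 4.70% and 3.38% in LY6G, against 4.19%, 20.0% and 21% in LY6C. These libraries were both shallower and poorer in protein-coding counts, while LY6C of culture 2 resembled the LY6G libraries. Over the tested genes, log2 CPM of LY6C culture 2 had Pearson's r = 0.985 with LY6G culture 2, 0.953 with LY6C culture 3 and 0.922 with LY6C culture 6. CPM are counts scaled by library size and TMM factors. They are not divided by gene length, so levels are compared between libraries and never between genes. One CPM stood for 22.6, 23.9 and 20.7 counts in LY6G and for 23.8, 9.30 and 6.03 counts in LY6C. Because depth and composition move with the population in cultures 3 and 6, differences are also given within each culture, and the part of depth and composition in them was not tested.

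**Figure D1:**
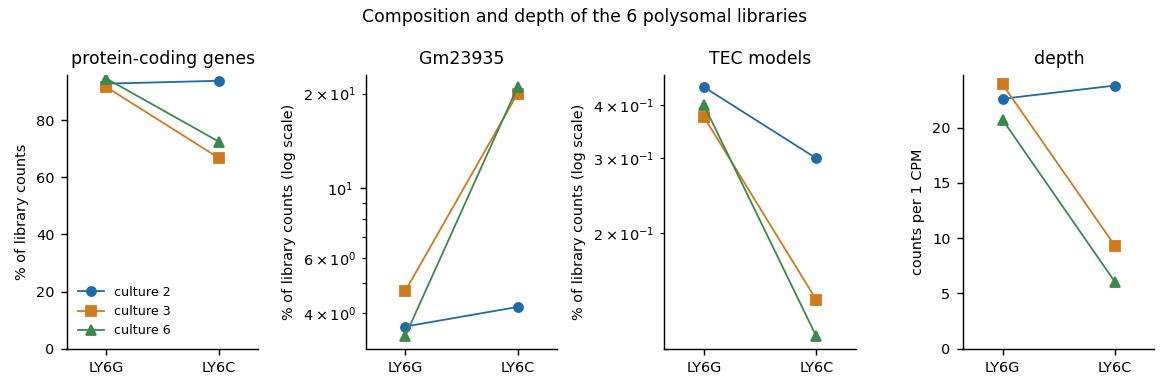
Share of library counts in protein-coding genes, in Gm23935 (log scale) and in TEC models (log scale), and counts behind 1 CPM, in the 6 polysomal libraries; each line joins the LY6G (left) and LY6C (right) library of 1 culture. LY6C of cultures 3 and 6 sit at 66.8% and 72.5% protein-coding counts, and the other 4 libraries at 91.6% or more.

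No gene passed the test between LY6G and LY6C in polysomal RNA. Of 13262 genes tested with edgeR's quasi-likelihood test, 0 (0%) had a Benjamini-Hochberg adjusted p under 0.05, and the lowest adjusted p was 0.631. With the culture number as a block the count was also 0 (0%), and the lowest adjusted p was 0.328. Without the block 933 genes had an unadjusted p under 0.05, 389 of them (2.93% of all tested) higher and 544 (4.10%) lower in LY6G. With the block 1836 genes did, 802 (6.05%) higher and 1034 (7.80%) lower. DESeq2 also called 0 genes, with 1246 at an unadjusted p under 0.05, and limma called 0, with 1710. The absence of a called gene does not show that the populations are alike. The common dispersion, which measures the spread between replicates, was 0.148 without the block and 0.0781 with it. The median log2 difference, LY6G minus LY6C, was 0.01 over all tested genes. Genes are therefore described here by their values, by whether the 3 LY6G and 3 LY6C libraries overlapped, and by whether LY6G was on the same side of LY6C in all 3 cultures. Groups did not overlap for 1118 genes (8.43%) higher in LY6G and 838 (6.32%) lower. The side was the same in all 3 cultures for 2807 genes (21.2%) higher and 2814 (21.2%) lower.

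The mRNAs of the sort antigens gave a mixed picture. Ly6g, the gene of the neutrophil antigen used as gate (GRCm38, chr15:75155240-75159126), had 8.19, 6.18 and 50.8 CPM in LY6G, against 7.99, 18.1 and 12.4 CPM in LY6C. It was about equal in culture 2, lower in LY6G in culture 3 and higher in LY6G in culture 6, so the groups overlapped. The fitted log2 difference was 0.76 ± 0.79 (SE), and −0.84 without LY6G of culture 6. Ly6c2, a gene of the Ly6C antigen (chr15:75108158-75111970), had 306, 365 and 532 CPM in LY6G, against 414, 580 and 2450 CPM in LY6C. It was lower in LY6G in every culture, with log2 differences of −0.44, −0.67 and −2.20, although the LY6G library of culture 6 lay above LY6C of culture 2. Ly6c1, the near-identical neighbour of Ly6c2, held 0, 2 and 6 counts in LY6G and 2, 7 and 15 counts in LY6C and did not enter the test. The counting may split reads between these similar genes, so their values are uncertain. Itgam, which encodes the Cd11b chain shared by both gates, had 176, 180 and 165 CPM in LY6G, against 180, 105 and 61.2 CPM in LY6C.

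The likeness to neutrophils and monocytes named above was checked against marker lists, and the summed neutrophil markers were not higher in LY6G in any culture. The 11 neutrophil markers, among them S100a8, Camp, Ltf and Mmp8, summed to 5340, 5800 and 3990 CPM in LY6G. Their sums in LY6C were 5900, 18800 and 5520 CPM, so LY6C of culture 3 alone stood far above. Single markers differed: Ngp was lower in LY6G in every culture, while Mmp8 was higher in LY6G in cultures 3 and 6. Mmp8 had 881, 716 and 730 CPM in LY6G, against 1080, 407 and 597 CPM in LY6C. None of the 11 was at 0 in any library. Csf3r, the receptor for granulocyte colony-stimulating factor, had 303, 90.3 and 180 CPM in LY6G, against 333, 121 and 25.0 CPM in LY6C. S100a8, a calcium-binding alarmin of neutrophils, had 1309, 1249 and 926 CPM in LY6G, against 1074, 2294 and 988 CPM in LY6C. Both genes overlapped between the populations. The 6 monocyte markers summed to 2150 to 3390 CPM in LY6G and to 1670 to 4680 CPM in LY6C, and the 8 macrophage markers to 942 to 1990 CPM in LY6G and to 480 to 1560 CPM in LY6C. Csf1r, the receptor for macrophage colony-stimulating factor, had 1201, 1250 and 2232 CPM in LY6G, against 1422, 699 and 1644 CPM in LY6C. Ccr2, the chemokine receptor by which monocytes leave the marrow, had 247, 380 and 23.4 CPM in LY6G, against 246, 123 and 57.0 CPM in LY6C. Cx3cr1, a receptor of patrolling monocytes, stayed at or under 24.1 CPM in every library. Both populations thus carried neutrophil, monocyte and macrophage transcripts on polysomes, and they are called here by the names of their gates. In bulk RNA, fewer cells of a kind and less RNA per cell cannot be told apart.

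The suppressive enzymes varied more between cultures than between populations. Arg1, which encodes arginase 1 (chr10:24915221-24927484), had 72.6, 46.2 and 2070 CPM in LY6G, against 33.8, 11.3 and 2624 CPM in LY6C. It was higher in LY6G in cultures 2 and 3 and lower in culture 6, and culture 6 exceeded the others in both populations. Nos2, which encodes inducible nitric oxide synthase (chr11:78920787-78960254), had 4.78, 6.98 and 161 CPM in LY6G, against 3.32, 3.98 and 1474 CPM in LY6C. The same culture was the high one, with a log2 difference of −3.19 within it. Neither gene came near the threshold, with edgeR adjusted p = 0.967 for Arg1 and 0.683 for Nos2. Of 22 tested genes of the suppressive function list, 1 was higher and 1 lower in LY6G in all 3 cultures, and their median log2 difference was −0.06.

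**Figure D2:**
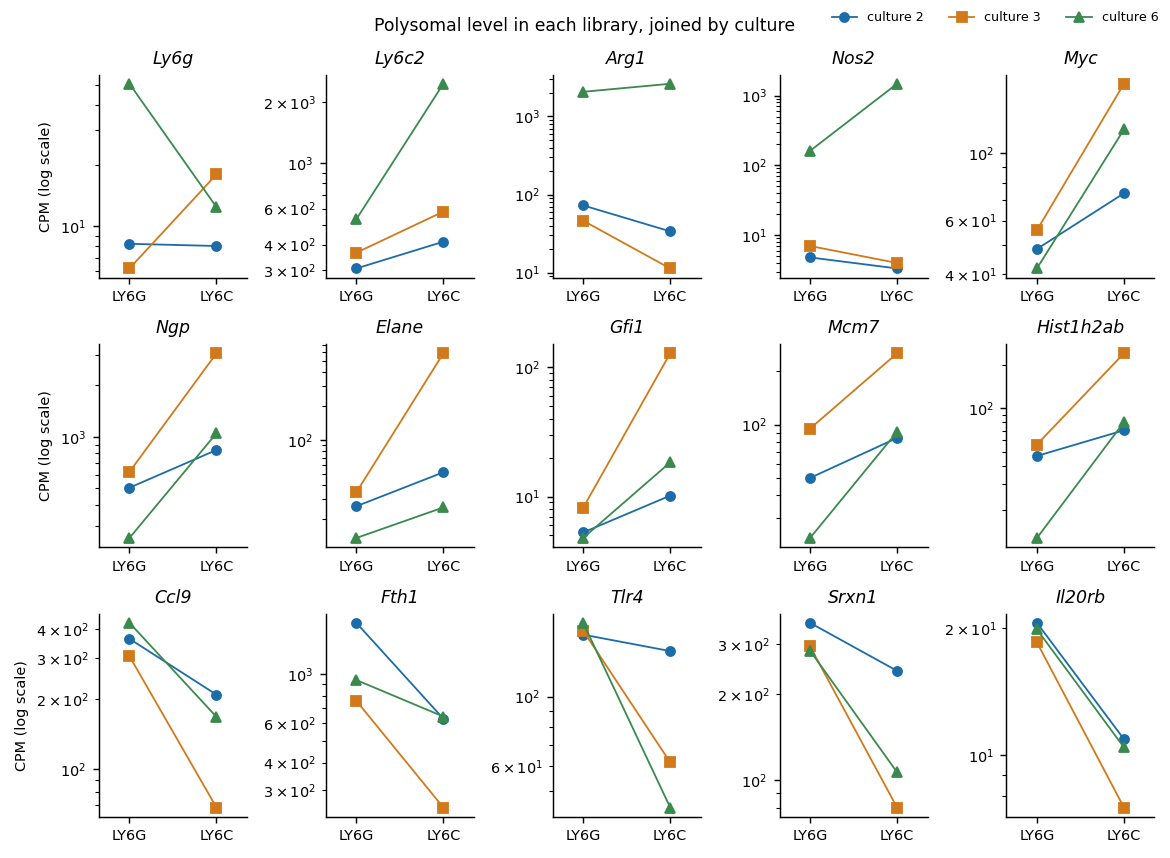
CPM (log scale) of 15 genes in the 6 polysomal libraries, LY6G left and LY6C right, with a line for each culture. For Ly6g and Arg1 the lines slope both ways, while Myc, Ngp, Gfi1 and Mcm7 lie lower in LY6G on every line and Ccl9, Fth1, Srxn1 and Il20rb lie higher in LY6G on every line.

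Genes of DNA replication and mitosis sat lower in LY6G than in LY6C in each culture. Of 40 tested cell cycle genes, 34 (85.0%, against 21.2% of all tested genes) were lower in LY6G in all 3 cultures and 0 were higher. Without a block, 0 of the 40 had an unadjusted p under 0.05, beside 4.10% of all genes lower in LY6G at that level. With the culture as a block 29 did, all lower in LY6G, beside 7.80% of all genes. Their median log2 difference was −0.72 in the fit, and −0.39, −0.80 and −1.59 within cultures 2, 3 and 6. Culture 2 showed the same side at a smaller size, and the part of depth and composition in these values was not tested. Leaving out 1 library or culture gave fitted medians of −1.25 to −0.22, the smallest without LY6C of culture 3. Summed over all 41 members of the list, tested or not, levels were 2778, 4066 and 1333 CPM in LY6G, against 3670, 7219 and 3068 CPM in LY6C. Culture 3 was the high one and culture 6 the low one in both populations, and the groups were fully apart for only 2 of the 40 genes, both lower in LY6G, beside 6.32% of all tested genes.

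Mcm7, a subunit of the replicative helicase, had 50.1, 95.0 and 23.0 CPM in LY6G, against 84.2, 252 and 91.2 CPM in LY6C. Its highest LY6G value exceeded its lowest LY6C value, yet LY6G was the lower one in every culture. The log2 difference was −1.35 ± 0.61 (SE) with an edgeR adjusted p of 0.631, and −0.65 without LY6C of culture 3. Aurkb, a kinase of chromosome segregation, had 46.9, 63.8 and 9.02 CPM in LY6G, against 73.4, 197 and 69.3 CPM in LY6C, with no overlap. Tk1, which makes thymidine monophosphate for DNA synthesis, had 10.4, 20.5 and 3.23 CPM in LY6G, against 19.5, 48.1 and 22.4 CPM in LY6C. Pcna, the sliding clamp of DNA polymerase, had 162, 183 and 94.4 CPM in LY6G, against 199, 244 and 270 CPM in LY6C, with no overlap.

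Replication genes are textbook targets of E2F factors, so the promoters of the list were searched for E2F-type letters. TTTCGCGC and TTTGGCGC were searched on both strands (reverse complements GCGCGAAA and GCGCCAAA) in RefSeq promoter windows of 250 bases before to 50 after the gene start (GRCm38.p6). Of 30 cell cycle genes with a window, 6 (20.0%) held a match, against 174 of 9391 tested genes (1.85%) and 251 of all 27025 genes (0.929%). The 6 were Cdk1, Mcm3, Mcm5, Mcm6, Mcm7 and Uhrf1. A match is a description of letters and not a bound site, and the data hold no measure of binding. A high share could be foreseen for a list of known E2F targets. The search used no LY6G or LY6C value, so it does not bear on their difference. The stretches around the match are shown for the 4 genes whose first match lies upstream of the start, so that the shared letters of these cell cycle promoters can be seen. Each is written along the strand of the gene, with the first match in capitals; in Mcm5 and Mcm6 a match on the other strand overlaps it.
Cdk1, chr10:69353014-69353065, minus strand: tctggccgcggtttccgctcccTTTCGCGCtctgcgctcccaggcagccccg
Mcm5, chr8:75109334-75109385, plus strand: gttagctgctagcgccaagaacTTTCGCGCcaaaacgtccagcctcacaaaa
Mcm6, chr1:128359786-128359837, minus strand: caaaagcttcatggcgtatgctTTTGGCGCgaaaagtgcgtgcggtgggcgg
Uhrf1, chr17:56304106-56304157, plus strand: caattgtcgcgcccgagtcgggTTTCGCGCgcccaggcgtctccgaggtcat

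Values of these 4 genes follow. Cdk1, the kinase that drives entry into mitosis, had 36.1, 51.4 and 9.26 CPM in LY6G, against 43.5, 87.1 and 31.2 CPM in LY6C. Mcm5, a helicase subunit, had 102, 156 and 38.2 CPM in LY6G, against 148, 373 and 89.9 CPM in LY6C. Mcm6, another helicase subunit, had 112, 152 and 44.5 CPM in LY6G, against 132, 311 and 98.2 CPM in LY6C. All 3 were lower in LY6G in each culture, with groups that overlapped. Uhrf1, which recruits the maintenance DNA methyltransferase to replicated DNA, had 62.5, 128 and 22.1 CPM in LY6G, against 107, 310 and 102 CPM in LY6C. Its groups overlapped too, and its within-culture log2 differences were −0.78, −1.28 and −2.20.

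Replication-dependent histone genes, which are transcribed in S phase and whose mRNAs mostly end in a stem-loop without a poly(A) tail, are read in libraries made from ribosome-depleted RNA. Of 59 tested histone genes, 39 (66.1%) were lower in LY6G in all 3 cultures and 1 was higher. Their median log2 difference was −0.996 in the fit and −0.12, −1.43 and −1.21 within cultures. Without LY6C of culture 3 the median was −0.28, so that library carried much of its size. Hist1h2ab had 46.9, 56.2 and 12.7 CPM in LY6G, against 70.5, 240 and 80.3 CPM in LY6C, with no overlap. Hist1h4d had 270, 223 and 128 CPM in LY6G, against 322, 901 and 351 CPM in LY6C, also with no overlap. Histone genes of a cluster resemble each other closely, and the counting may split their reads, so values of single members are uncertain.

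Granule genes of early neutrophil development were lower in LY6G, mostly through culture 3. Primary granules are made at the promyelocyte stage and hold serine proteases and myeloperoxidase. All 10 list members were tested, and 8 (80.0%) were lower in LY6G in all 3 cultures. Their median log2 difference was −2.26 in the fit but −0.59, −2.78 and −0.79 within cultures, and without LY6C of culture 3 it was −0.53. Elane, neutrophil elastase, had 26.0, 34.5 and 13.6 CPM in LY6G, against 52.0, 589 and 25.4 CPM in LY6C. Mpo, myeloperoxidase, had 27.6, 34.3 and 20.8 CPM in LY6G, against 59.5, 508 and 10.8 CPM in LY6C, so it was higher in LY6G in culture 6. Ctsg, the protease cathepsin G, had 7.39, 11.8 and 7.72 CPM in LY6G, against 19.3, 153 and 13.6 CPM in LY6C, with no overlap. Fcnb, a ficolin of granulocytes, had 16.7, 29.8 and 11.0 CPM in LY6G, against 27.9, 152 and 68.7 CPM in LY6C. Its lowest LY6C value was just under its highest LY6G value. The 5 neutrophil progenitor markers, which share Mpo, Elane and Ctsg with this list, summed to 133, 162 and 70.9 CPM in LY6G, against 214, 1840 and 96.7 CPM in LY6C. The LY6C library of culture 3 was far above every other library, and the part of granulocyte progenitors in it was not tested.

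Genes of later neutrophil maturation were also lower in LY6G. Of 25 tested, 13 (52.0%) were lower in LY6G in all 3 cultures and 0 higher, with a median log2 difference of −0.65 in the fit and −0.30, −1.33 and −0.47 within cultures. Without LY6C of culture 3 it was −0.33. Ngp, a protein of secondary granules, had 504, 624 and 256 CPM in LY6G, against 837, 3072 and 1049 CPM in LY6C. Ngp did not overlap between groups. Of 26 myeloid transcription factors, 5 were higher and 5 lower in LY6G in all 3 cultures (19.2% each, beside 21.2% of all genes), with a median of 0.16, so the list took no common side. Among the lower ones, Gfi1, a repressor required for neutrophil development, had 5.27, 8.19 and 4.78 CPM in LY6G, against 10.2, 129 and 18.4 CPM in LY6C, with a log2 difference of −3.11 ± 0.92 (SE), −1.22 without LY6C of culture 3, and an edgeR adjusted p of 0.631. Cebpe, which turns on secondary granule genes and is also in the maturation list, had 23.5, 31.1 and 25.7 CPM in LY6G, against 36.7, 144 and 44.1 CPM in LY6C. Neither overlapped between populations. Myb, a factor of progenitor cells, had 6.24, 9.73 and 7.67 CPM in LY6G, against 11.6, 59.0 and 10.9 CPM in LY6C.

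The genes given next share no list and were named for their low p among genes that lay lower in LY6G without overlap. Myc, the transcription factor that drives ribosome production and biosynthesis (chr15:61985391-61990374), had 48.4, 55.8 and 41.7 CPM in LY6G, against 73.8, 169 and 120 CPM in LY6C. Every LY6G library lay under every LY6C library, and the log2 difference was −1.31 ± 0.33 (SE) with an unadjusted p of 0.00436 and an edgeR adjusted p of 0.631. Within cultures it was −0.61, −1.60 and −1.52. Trp53, which encodes the p53 tumour suppressor, had 65.4, 64.9 and 59.1 CPM in LY6G, against 92.8, 111 and 127 CPM in LY6C. The LY6G values were close to each other and the 2 ranges were well apart. C1qbp, a mitochondrial matrix protein needed for mitochondrial translation, had 34.8, 43.8 and 25.1 CPM in LY6G, against 51.3, 126 and 91.7 CPM in LY6C. Utp3, a factor of ribosomal RNA processing, had 19.9, 21.1 and 25.4 CPM in LY6G, against 30.2, 58.2 and 66.7 CPM in LY6C. Hnrnpa0, a nuclear RNA-binding protein, had 206, 285 and 254 CPM in LY6G, against 313, 916 and 934 CPM in LY6C. Pabpn1, the nuclear poly(A)-binding protein, had 16.3, 15.7 and 14.4 CPM in LY6G, against 16.8, 88.5 and 112 CPM in LY6C. In culture 2 Pabpn1 differed by only 0.04 on the log2 scale, so its large fitted difference came from cultures 3 and 6, the cultures whose LY6C libraries stood apart.

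Aminoacyl-tRNA synthetases, which charge tRNAs with amino acids, were lower in LY6G almost throughout. Of 23 tested, 19 (82.6%) were lower in all 3 cultures and 0 higher. Their median log2 difference was −0.51 in the fit and −0.26, −0.48 and −0.42 within cultures, and −0.27 without LY6C of culture 3. Their summed level was 1459, 1832 and 1543 CPM in LY6G, against 1769, 2923 and 2317 CPM in LY6C. Vars, the valyl-tRNA synthetase, had 126, 199 and 89.1 CPM in LY6G, against 175, 482 and 259 CPM in LY6C. Farsa, a subunit of the phenylalanyl-tRNA synthetase, had 47.1, 55.6 and 51.5 CPM in LY6G, against 58.6, 133 and 94.5 CPM in LY6C. Farsa did not overlap between populations, while Vars did. Translation factors followed less uniformly, with 18 of 41 (43.9%) lower in LY6G in all 3 cultures, 4 higher and a median of −0.17 (−0.07 without LY6C of culture 3). Eif3k, a subunit of an initiation factor, had 75.2, 71.9 and 81.3 CPM in LY6G, against 82.7, 154 and 171 CPM in LY6C.

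The side of ribosomal protein mRNAs changed between cultures. Of 81 tested, 5 were lower and 5 higher in LY6G in all 3 cultures (6.17% each, below the 21.2% of all genes). Their median log2 difference was 0.63 in culture 2, −0.63 in culture 3 and −0.32 in culture 6. Summed over all 83 members, tested or not, the list held 12870, 11150 and 8633 CPM in LY6G, against 8826, 18710 and 12490 CPM in LY6C. Of the 81, 10 had a log2 difference below 0 in culture 2, 75 in culture 3 and 53 in culture 6. Rpl27 and Rps27, among the members with the lowest p, kept to opposite sides in every culture and do not stand for the list. Rpl27 had 72.2, 73.1 and 80.7 CPM in LY6G, against 83.3, 216 and 183 CPM in LY6C, while Rps27 had 79.0, 46.8 and 49.0 CPM in LY6G, against 33.0, 31.5 and 17.6 CPM in LY6C. Both sets of values were free of overlap. Rpl39, one of the shortest ribosomal proteins, had 86.2, 75.6 and 26.8 CPM in LY6G, against 22.4, 37.5 and 20.2 CPM in LY6C. Ribosomal protein genes have many processed copies in the genome, and the counting may split their reads.

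Protein turnover and folding genes lay lower in LY6G by small amounts. Of 32 proteasome genes, 20 (62.5%) were lower in all 3 cultures and 0 higher, with medians of −0.24, −0.29 and −0.37 within cultures. The fitted median of −0.32 was −0.15 without LY6C of culture 6. Psmd4, a ubiquitin receptor of the proteasome, had 60.7, 74.6 and 89.3 CPM in LY6G, against 77.9, 138 and 204 CPM in LY6C. Of 19 genes of the unfolded protein response, 12 (63.2%) were lower in all 3 cultures and 0 higher, with medians of −0.25, −0.29 and −0.31 within cultures. The part of depth and composition in these medians was not tested. Xbp1, a transcription factor of this response, had 158, 194 and 174 CPM in LY6G, against 187, 350 and 428 CPM in LY6C. Hspa5, the chaperone BiP of the endoplasmic reticulum, had 833, 1065 and 1477 CPM in LY6G, against 1044, 1887 and 3185 CPM in LY6C.

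Metabolic lists differed in how evenly they lay lower in LY6G. Of 26 cholesterol synthesis and uptake genes, 19 (73.1%) were lower in LY6G in all 3 cultures and 1 higher, with a median of −0.45 that was −0.13 without LY6C of culture 3. Nsdhl, a sterol dehydrogenase of that pathway, had 5.05, 6.10 and 5.21 CPM in LY6G, against 7.95, 10.4 and 10.8 CPM in LY6C. Pmvk, a kinase of the mevalonate pathway, had 14.1, 18.7 and 11.9 CPM in LY6G, against 17.4, 51.9 and 51.6 CPM in LY6C. Of 23 genes of the ATF4 response, which includes serine synthesis, 9 (39.1%) were lower and 4 (17.4%) higher in all 3 cultures, with a median of −0.36 that was −0.13 without culture 3. Phgdh, the first enzyme of serine synthesis, had 42.5, 68.9 and 16.0 CPM in LY6G, against 56.9, 320 and 86.7 CPM in LY6C. Shmt2, which passes the carbon of serine to folate in mitochondria, had 31.0, 43.7 and 18.9 CPM in LY6G, against 46.3, 153 and 62.9 CPM in LY6C, with no overlap. Atf5, a member on the other side, had 63.6, 54.05 and 76.3 CPM in LY6G, against 49.9, 42.5 and 51.1 CPM in LY6C. Of the 23, 1 was lower without overlap and 2 higher, beside 6.32% and 8.43% of all tested genes. Of 18 lipid uptake genes, 2 were lower and 3 higher in all 3 cultures, with a median of 0.21 that was −0.36 without LY6G of culture 6. Of 27 glycolysis and hypoxia genes, 14 (51.9%) were lower in all 3 cultures and 2 higher, and the median of −0.55 was −0.89 without LY6G of culture 6 and 0.12 without LY6C of culture 6. Hk3, a hexokinase of myeloid cells, had 268, 327 and 366 CPM in LY6G, against 304, 1075 and 997 CPM in LY6C. G6pdx, which feeds glucose into the pentose phosphate pathway, had 244, 309 and 330 CPM in LY6G, against 354, 588 and 588 CPM in LY6C, without overlap.

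Nuclear genes of oxidative phosphorylation differed by culture. Of 71 tested, 21 (29.6%) were lower in LY6G in all 3 cultures and 4 higher, and the median was 0.08, −0.39 and −0.69 within cultures. Atp5h, a subunit of ATP synthase, had 91.6, 98.5 and 92.6 CPM in LY6G, against 130, 189 and 290 CPM in LY6C. Cox5b, a subunit of cytochrome c oxidase, had 30.4, 24.9 and 39.8 CPM in LY6G, against 40.8, 67.5 and 102 CPM in LY6C. They were among the 4 members with the lowest p and did not overlap between populations. Short genes as a class had lower values in LY6G in the same 2 cultures. Over the 2843 protein-coding genes with the shortest summed exons (243 to 2861 bases) the median log2 difference was −0.02, −0.22 and −0.31 within cultures, and over the 2843 with the longest −0.06, 0.14 and 0.18. The part of transcript length in the values of short genes such as those of oxidative phosphorylation was not tested.

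**Figure D3:**
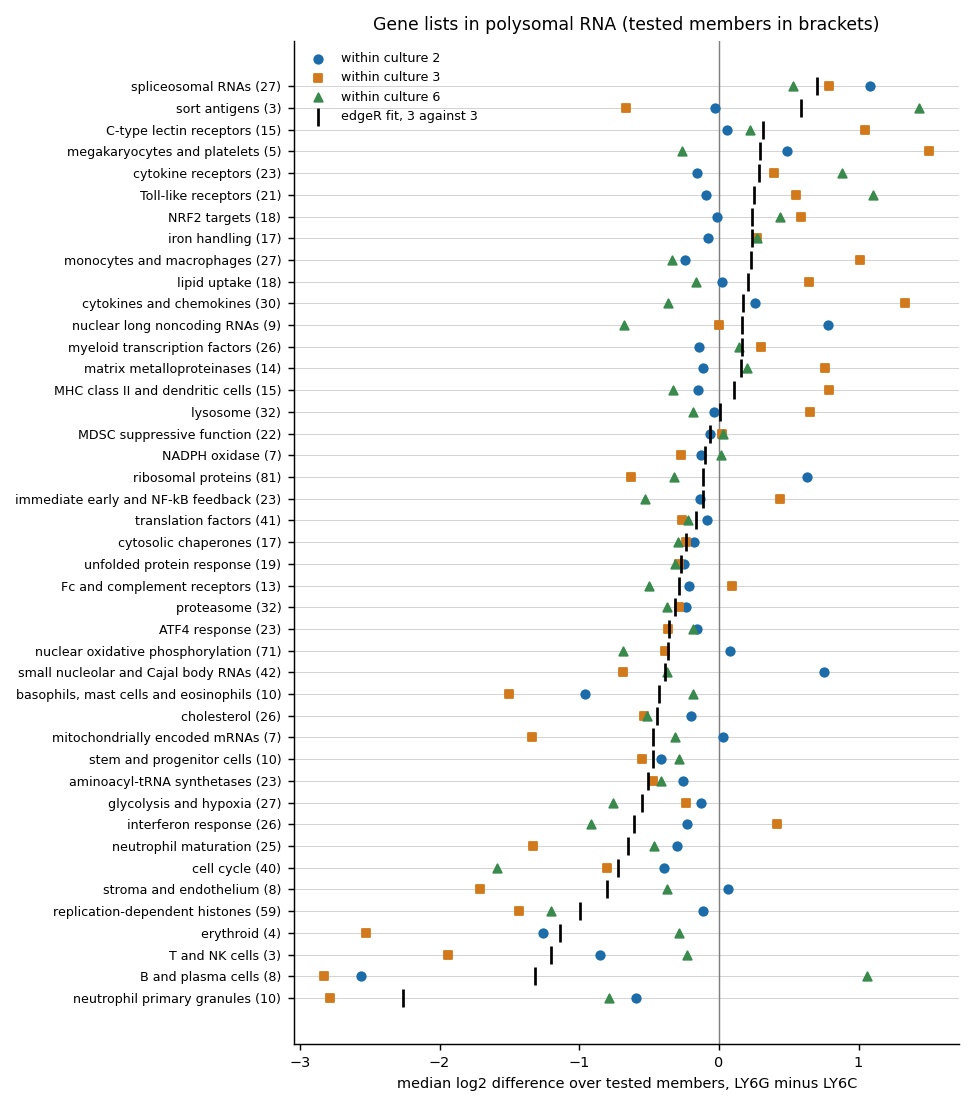
Median log2 difference, LY6G minus LY6C, over the tested members of each gene list, within cultures 2, 3 and 6 (points) and in the edgeR fit (bars). Cell cycle, aminoacyl-tRNA synthetase, proteasome and cholesterol lists lie under 0 in all 3 cultures, while ribosomal proteins and interferon response lie on both sides.

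Genes higher in LY6G included single chemokines, receptors and genes of oxidative defence. Ccl9, Il20rb, Met, Srxn1, Fth1, Ell2, Dusp3 and H2-M2 were named for their low p among genes higher in LY6G without overlap. Their separate ranges follow from that choice, which also favours close replicates. Ccl9, which attracts myeloid cells through Ccr1 (chr11:83572919-83578636), had 362, 305 and 424 CPM in LY6G, against 209, 68.4 and 168 CPM in LY6C. The ranges were apart, and the log2 difference was 1.30 ± 0.41 (SE) with an edgeR adjusted p of 0.631. Ccl6, a related chemokine, had 849, 654 and 663 CPM in LY6G, against 609, 258 and 341 CPM in LY6C, again without overlap. Over the list of 30 cytokines and chemokines, 6 (20.0%, beside 21.2% of all genes) were higher in LY6G in all 3 cultures and 0 lower, so the list was no more often higher than genes at large. Ccl9 and Ccl6 were the only 2 of the 30 higher without overlap, beside 8.43% of all tested genes.

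Lists of innate receptors went different ways. Of 13 Fc and complement receptors, 5 (38.5%) were lower in LY6G in all 3 cultures and 0 higher, with a median of −0.29 that was 0.22 without LY6C of culture 6. Of 15 C-type lectin receptors, 7 (46.7%) were higher in all 3 cultures and 3 lower. Clec4d, which pairs with Mincle to bind mycobacterial glycolipids, had 276, 197 and 406 CPM in LY6G, against 210, 70.7 and 179 CPM in LY6C. Of 21 genes of Toll-like receptor signalling, 6 (28.6%, beside 21.2% of all genes) were higher in all 3 cultures and 2 lower. Tlr4, the lipopolysaccharide receptor, had 157, 162 and 172 CPM in LY6G, against 140, 61.9 and 44.5 CPM in LY6C. Tlr7, which senses single-stranded RNA, had 41.8, 38.8 and 66.8 CPM in LY6G, against 29.6, 11.2 and 31.0 CPM in LY6C. Both were without overlap, though Tlr4 differed by only 0.17 on the log2 scale in culture 2. They were among the members with the lowest p and the only 2 of the 21 higher without overlap, beside 8.43% of all tested genes. Myd88, the adaptor of most of these receptors, was on the other side, with 185, 187 and 178 CPM in LY6G, against 228, 303 and 344 CPM in LY6C.

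Of 23 cytokine and chemokine receptor genes, 6 (26.1%, beside 21.2% of all genes) were higher in LY6G in all 3 cultures and 3 lower. Its member with the lowest p was on the lower side: Cxcr4, the receptor that retains neutrophils in the marrow, had 66.2, 51.1 and 63.1 CPM in LY6G, against 111, 145 and 82.6 CPM in LY6C. Il1r1, the signalling receptor for interleukin-1, had 21.6, 21.3 and 58.8 CPM in LY6G, against 16.4, 5.06 and 18.9 CPM in LY6C. Outside this list, Il20rb, a chain of the receptors for interleukins of the IL-20 group, had 20.6, 18.5 and 19.9 CPM in LY6G, against 10.9, 7.53 and 10.4 CPM in LY6C. Its replicates lay close together in both populations, with within-culture log2 differences of 0.91, 1.28 and 0.92, a fitted difference of 1.03 ± 0.25 (SE) and an edgeR adjusted p of 0.631. Met, the receptor for hepatocyte growth factor, had 102, 104 and 195 CPM in LY6G, against 68.9, 29.4 and 71.7 CPM in LY6C. Il1r1, Il20rb and Met had every LY6G library above every LY6C library, as the naming rule required for Il20rb and Met, which are outside the list. Of the 23 list members, 6 were higher without overlap, Il1r1 among them, beside 8.43% of all tested genes.

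Oxidative defence and iron storage genes were split. Of 18 NRF2 targets, 8 (44.4%) were higher in LY6G in all 3 cultures and 4 lower (22.2%). Srxn1, sulfiredoxin, had 357, 295 and 285 CPM in LY6G, against 242, 80.0 and 106 CPM in LY6C. Txnrd1, thioredoxin reductase, had 566, 495 and 599 CPM in LY6G, against 474, 301 and 301 CPM in LY6C. Fth1, the heavy chain of the iron store ferritin, had 1698, 758 and 940 CPM in LY6G, against 630, 251 and 644 CPM in LY6C. All 3 had LY6G above LY6C with no overlap, and among the NRF2 targets on the other side was G6pdx, given above. Other genes with separate ranges were Ell2, an elongation factor of RNA polymerase II, with 59.1, 73.1 and 81.1 CPM in LY6G, against 44.4, 24.0 and 30.7 CPM in LY6C, and Dusp3, a protein phosphatase, with 71.0, 90.1 and 80.1 CPM in LY6G, against 53.0, 28.8 and 38.5 CPM in LY6C. H2-M2, a class Ib major histocompatibility gene, had 18.3, 13.6 and 37.5 CPM in LY6G, against 9.88, 3.01 and 6.14 CPM in LY6C.

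Monocyte and macrophage genes showed no common side. Of 27 tested, 3 (11.1%) were higher and 2 (7.41%) lower in LY6G in all 3 cultures, and the median was −0.24, 1.01 and −0.34 within cultures. Gpnmb, a glycoprotein of lysosome-rich macrophages, had 484, 341 and 742 CPM in LY6G, against 363, 100 and 327 CPM in LY6C. Adgre1, the macrophage antigen F4/80, had 532, 427 and 1344 CPM in LY6G, against 507, 210 and 518 CPM in LY6C. Interferon response genes differed by culture. Isg15, a ubiquitin-like modifier, had 76.4, 83.5 and 350 CPM in LY6G, against 95.9, 77.0 and 1052 CPM in LY6C, and Ifitm3, a membrane protein that restricts viral entry, had 244, 275 and 616 CPM in LY6G, against 280, 397 and 1412 CPM in LY6C. Culture 6 was the high one in both populations for both genes. Over the 26 interferon response genes the median log2 difference was −0.61 in the fit and 0.94 without LY6C of culture 6.

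Gene models inside introns were higher in LY6G as a class. TEC models are loci that the annotation lists as awaiting experimental testing, and most of those tested here lie within a protein-coding gene. Per 1000 protein-coding counts, all TEC models together held 4.76, 4.10 and 4.24 counts in LY6G, against 3.20, 2.08 and 1.57 counts in LY6C. All 3 LY6G libraries were above all 3 LY6C libraries, including within culture 2. The sense_intronic class, transcripts within introns on the strand of the host gene, held 0.460, 0.364 and 0.403 counts in LY6G, against 0.292, 0.178 and 0.123 counts in LY6C on the same scale. Of 676 TEC models tested, 282 (41.7%, beside 8.43% of all genes) were higher in LY6G without overlap and 2 were lower, while protein-coding genes had 657 of 11371 (5.78%) higher and 799 (7.03%) lower. Most of these models are low, and a model may have passed the filter through the LY6G libraries alone. Among the 99 TEC models with a mean of at least 5 CPM over the 6 libraries, 36 (36.4%) were higher without overlap and 0 lower, beside 555 of all 9487 genes at that level (5.85%) higher. Such a mean can also be reached through the LY6G libraries, so this subset does not remove the limit.

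Models and their host genes did not differ alike. Of the 676 TEC models, 569 lay inside a protein-coding gene on its strand, and 547 of these shared no exon base with it. For the 559 whose host was tested, 516 had a log2 difference above that of the host, with a median of 0.91 for the models and 0.12 for their 394 hosts. The median was 1.63 CPM for tested TEC models and 25.9 CPM for tested protein-coding genes. As CPM are not divided by length, these values compare the counts behind each class and not its RNA level. A low model may have passed the filter through the LY6G libraries alone, which favours a difference above the host. The size of that effect was not tested. The 4 examples, chosen after their values were seen, had the lowest p of the class. Gm37558 (chr3:69119742-69122724, inside Kpna4) had 34.8, 33.6 and 30.1 CPM in LY6G, against 18, 11.6 and 8.29 CPM in LY6C. Its host Kpna4, an importin, had 131, 121 and 145 CPM in LY6G, against 145, 78.4 and 139 CPM in LY6C. The model was apart between populations and the host was not. 9430034N14Rik (chr1:156026223-156030007, inside Tor1aip1) had 8.81, 9.23 and 12.6 CPM in LY6G, against 4.12, 3.12 and 3.32 CPM in LY6C. Gm37689 inside Sdcbp and Gm45033 inside Pik3c2a were likewise higher in LY6G, with log2 differences of 1.90 ± 0.45 and 1.48 ± 0.36 (SE). All 4 had an edgeR adjusted p of 0.631. Total RNA of the same cultures held 5.30, 4.89 and 5.48 TEC counts per 1000 protein-coding counts in LY6G, against 3.22, 2.14 and 3.06 in LY6C, so the difference was not one of polysomal RNA alone. The share of unspliced or nuclear RNA in the polysomal fractions was not measured, and its part in these values was not tested.

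**Figure D4:**
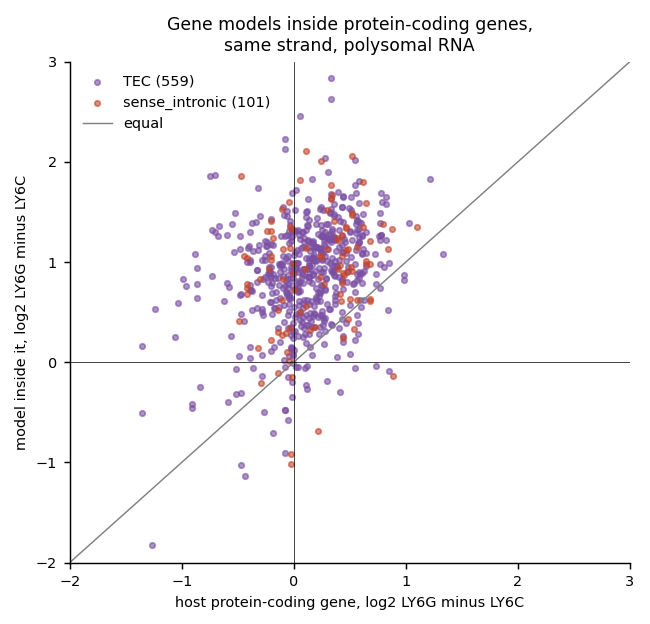
Log2 difference, LY6G minus LY6C, of 559 TEC and 101 sense_intronic models (vertical) against that of the protein-coding gene they lie in (horizontal), in polysomal RNA; each point is a model and the grey line marks equal values. Most points lie above the line, with a median of 0.91 for TEC models and 0.12 for their hosts. Low models may have passed the filter through the LY6G libraries alone.

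Small nuclear RNAs of the spliceosome had a median log2 difference of 0.71 over 27 tested genes, with 10 (37.0%) higher in LY6G in all 3 cultures and 0 lower, but the median was −0.58 with at least 50 counts in 3 libraries and −0.52 after thinning to equal depth. The side of this class therefore depended on genes with few counts. Summed over all 1385 annotated loci of the class, most of them not tested, levels were 326, 148 and 108 CPM in LY6G. In LY6C they were 81.2, 300 and 333 CPM, so the sum was higher in LY6G in culture 2 and lower in the other cultures. This sum and the median cover different sets of genes. The 42 small nucleolar and Cajal body RNAs had a median of 0.75, −0.69 and −0.37 within cultures.

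Total RNA of the same cultures was set beside polysomal RNA to ask whether the populations differed in polysomal RNA beyond their difference in total RNA. In the 12 sorted-cell libraries, 0 of 13911 genes (0%) passed edgeR's test of that difference of differences, 12 had an unadjusted p under 0.05, and the lowest adjusted p was 1. With the block 0 passed and 31 had an unadjusted p under 0.05. For cell cycle genes the median log2 difference was −0.72 in polysomal and −0.66 in total RNA, for primary granules −2.26 and −2.15, and for aminoacyl-tRNA synthetases −0.51 and −0.48. Oxidative phosphorylation genes had −0.37 in polysomal and −0.14 in total RNA, ribosomal proteins −0.11 and 0.19, and spliceosomal RNAs 0.71 and 0.05. Leaving out 1 library or culture put the polysomal medians of these 3 lists at −0.59 to −0.14, −0.56 to 0.18 and 0.14 to 1.04. The spliceosomal median turned negative with at least 50 counts in 3 libraries or after thinning, as given above. It covered 27 tested genes in polysomal and 33 in total RNA. Myc had a log2 difference of −1.31 in polysomal and −0.91 in total RNA, and Ly6c2 had −1.52 in polysomal RNA, −0.31 without LY6C of culture 6, and −0.54 in total RNA. For Myc and Ly6c2 the departure from total RNA did not pass the test. The departures of the list medians were not tested. The fit without the block treated polysomal and total RNA of the same cells as independent. The block joined libraries by culture number only and did not pair the fractions within a population. The lack of a called gene therefore does not show that polysomal RNA followed total RNA. The total RNA libraries of LY6C cultures 3 and 6 stood apart too, with 37.6% and 54.9% protein-coding counts.

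**Figure D5:**
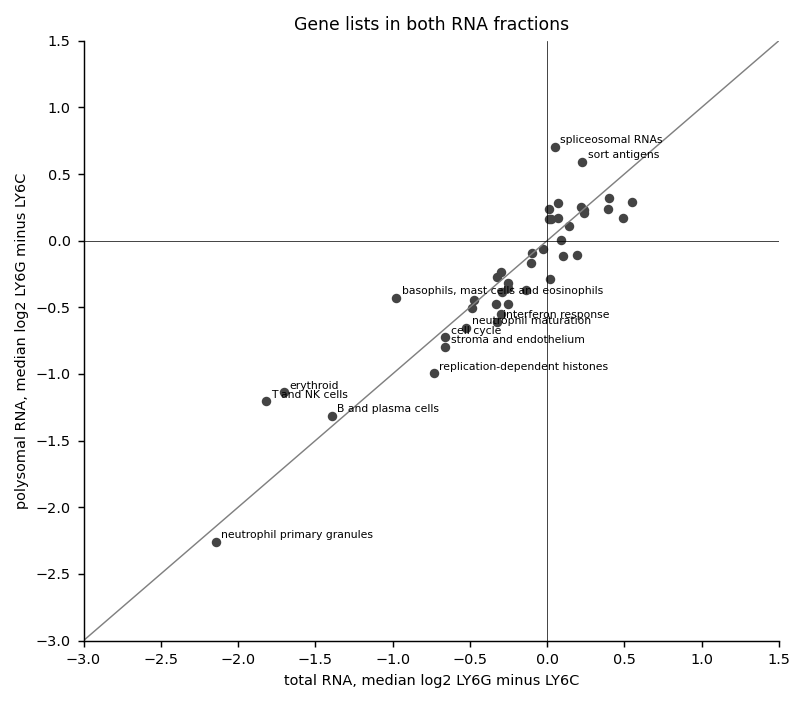
Median log2 difference, LY6G minus LY6C, of each gene list in polysomal RNA (vertical) against total RNA (horizontal); each point is a list, the grey line marks equal values and the lists farthest out are named. Primary granules lie at −2.26 and −2.15, and spliceosomal RNAs at 0.71 and 0.05. The spliceosomal value of 0.71 turned negative with at least 50 counts in 3 libraries. It covers 27 tested genes, against 33 in total RNA.

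Markers of other cells were low in both populations with some exceptions. The 5 erythroid markers summed to 0.209 to 4.24 CPM in LY6G and 2.98 to 7.85 CPM in LY6C, and the 5 B cell markers to 0.209 to 7.48 CPM in LY6G and 1.99 to 19.1 CPM in LY6C. T and NK cell markers summed to 1.73 to 2.02 CPM in LY6G and 1.66 to 7.21 CPM in LY6C, with Ncr1 at 0 in all 6 libraries. Megakaryocyte markers summed to 2.54 to 19.8 CPM in LY6G and 4.08 to 10.8 CPM in LY6C. Stroma markers summed to 2.34 to 6.61 CPM in LY6G and 1.64 to 15.8 CPM in LY6C. Outside these markers, Ppbp, Vwf and Kdr of the platelet and endothelium lists were not low. In culture 6 they had, in that gene order, 82.0, 54.1 and 43.75 CPM in LY6G, against 98.35, 112 and 164 CPM in LY6C. Mast cell, basophil and eosinophil markers summed to 10.1 to 102 CPM in LY6G and 39.6 to 178 CPM in LY6C. Prg2, the major basic protein of eosinophils, had 5.45, 5.18 and 48.0 CPM in LY6G, against 10.6, 21 and 135 CPM in LY6C, lower in LY6G in each culture and highest in culture 6. Dendritic cell markers, mostly class II genes that macrophages also express, summed to 966 to 2110 CPM in LY6G and 1270 to 2460 CPM in LY6C, and Flt3 was at 0 in 2 libraries. The part of these cells in the differences between LY6G and LY6C was not tested.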

How the data were processed

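Per the labels, polysomal RNA was taken from sucrose gradients, and stranded libraries were made after ribosomal RNA depletion. The authors deposited 1 table of raw counts, 54838 genes by 18 libraries. Per the submitters' processing notes, FastQC, STAR 2.5.2a, DESeq and DESeq2 were used with GRCm38; the counting program, annotation and strand setting are not given in the sources used here. GENCODE M21 named 54809 identifiers, and 29 had no match. The labels call the 3 cultures biological replicates without saying whether they came from separate mice, so p-values measure the spread between these cultures.

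The 6 polysomal libraries of LY6G and LY6C were fitted with edgeR 4.0.16 in R 4.3.3 (filterByExpr with a minimum count of 10, TMM, robust quasi-likelihood, Benjamini-Hochberg over 13262 genes, called at an adjusted p under 0.05), with no block. The 12 sorted-cell libraries gave the difference from total RNA. Within-culture log2 differences used CPM with a prior count of 2. Scripts were tested on simulated data. The numbers 2, 3 and 6 pair the libraries: deviations from the group mean correlated at 0.261, 0.392 and 0.465 between same-numbered libraries, against a threshold of 0.1, although LY6G culture 2 also correlated at 0.373 with LY6C culture 3. The block fit is therefore given beside the main counts.

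The gene lists (43), the sequence letters and the comparison were chosen with earlier results of these data known. Named genes were the 15 per direction with the lowest p among those with at least 10 CPM in the higher group, no overlap and the same side in each culture, by either fit, up to 4 of each list by p, and a fixed set of myeloid genes; the text gives a part of them. For genes named by either fit, the lack of overlap follows from the rule and is not a result. Promoter windows are RefSeq's. Alternatives were DESeq2 1.42.0, limma 3.58.1, other factors and filters, larger fits, the block, and leaving out libraries; chosen after seeing the data were thinning, leaving out LY6C cultures 3 and 6, and leaving out Gm23935 with ribosomal loci. Figures used matplotlib.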

Additional observations from a re-analysis of the deposited data

How the results depend on the processing

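No setting called a gene between LY6G and LY6C in polysomal RNA, or in the difference from total RNA, in the settings run for each. With the replicate block, which follows the pairing of cultures 2, 3 and 6, the count was 0 in the 6 libraries (1836 genes at an unadjusted p under 0.05, against 933) and 0 in the 12 sorted-cell libraries (2695), and it changed no call. Genes at an unadjusted p under 0.05 numbered 1710 with limma and 1417 without a filter, and 121 to 2625 when 1 library or 1 culture was left out. They were 2625 without LY6C of culture 2, 258 and 546 without LY6G of cultures 2 and 3, 316 without LY6C of culture 3, 121 without culture 3, and 156 without LY6C of cultures 3 and 6, where the lone LY6C library is assumed to vary like LY6G. Genes higher in LY6G without overlap numbered 1782 without a filter, against 1118. Leaving out 1 library or culture gave 1415 to 3056 higher and 1058 to 2844 lower; smaller groups overlap less often by construction.

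Of 87 genes followed through the settings, 74 never changed side. Under limma, Ly6g had a log2 difference of −0.55 and Arg1 of 0.95; Arg1 had 0.92 with the replicate block and 0.73 with the block in 12 libraries. The cause was not tested. Leaving out 1 library or culture gave ranges of −0.84 to 1.54 for Ly6g, −3.94 to 5.01 for Arg1, −6.44 to 3.99 for Nos2, −0.055 to 0.56 for Csf1r, −0.25 to 1.39 for Csf3r, −0.16 to 1.27 for Ccr2, −1.05 to 1.19 for Cx3cr1, −0.62 to 0.17 for S100a8, −0.90 to 0.45 for S100a9, −0.23 to 0.35 for Lyz2, −3.41 to 0.32 for Prg2, −1.45 to 0.16 for Ifitm3 and −2.39 to 0.97 for Isg15. The median of all genes shifted by over 0.1 only without a filter, to 0.11. At 6.03 counts per CPM in the shallowest library, genes near 1 CPM carry wide counting error.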
